A study of Rattus norvegicus with 3 samples.

Results

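Labels of blood vessel cells were followed across 1 section of thymus from an 8-week-old Lewis rat, an inbred strain. The members are the bins that carry an endothelial label (EC:aEC, EC:capEC or EC:vEC) or the mural label vSMC_PC in any of up to 3 places of the deposited cell-type call. Such a label was present on 14823 of 592087 labelled bins, a share of 2.50% (95% exact Clopper-Pearson interval 2.46 to 2.54). EC:vEC was on 4460 bins, EC:aEC on 3640, vSMC_PC on 3556 and EC:capEC on 3170. Spelled-out forms are not in the files. EC reads as endothelial cell, with arterial, capillary and venous forms, and vSMC_PC as vascular smooth muscle cells and pericytes.

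The section, 10 µm thick and with the right and left lobe side by side, was measured by Stereo-seq, in which a patterned chip captures RNA in place. A bin is a square of 20 chip units, or 10 µm at the nominal pitch of 0.5 µm, and labelled bins had a median of 326 UMIs (unique molecular identifiers, each counting 1 captured RNA molecule). A droplet library of CD45-negative stromal cells from rats of the same age and strain served to check what the labels stand for, and the thymocyte library is not used here. The labels give no treatment or genetic change for any sample. Each group had 1 sample, so there is no test and no p-value. All intervals are 95% intervals for counting error only, and neighbouring bins share RNA and tissue.

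In the thymus, arteries enter from the capsule and along septa and branch near the border of cortex and medulla. Capillaries cross the cortex and drain into postcapillary venules at that border and in the medulla. These venules are known as the way in for T cell progenitors and as a way out for mature T cells, and mural cells wrap arteries, venules and, as pericytes, capillaries.

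The deposited calls were made by RCTD (robust cell type decomposition), which gives the cell types that best account for the RNA of a bin, each with a weight. A vascular label was nearly always the minor part of a mixed bin. Of the 14823 bins, 14058 (94.8%) held exactly 2 labels, and the other label was in most cases a thymocyte. DN, the earliest thymocyte stage, was the partner of 49.6% of EC:aEC bins, 54.1% of EC:capEC bins, 46.9% of EC:vEC bins and 36.4% of vSMC_PC bins, against 44.6% of all labelled bins that held a DN label. The median weight of the vascular label was 18.8% for EC:aEC, 16.9% for EC:capEC, 19.0% for EC:vEC and 18.5% for vSMC_PC. Among the 2-label bins it had the larger weight in 234 (1.66%).

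A vascular label could stand first without the larger weight. Its median weight was still higher in the first place than in the second, for example 43.3% against 17.8% for EC:aEC. In the first place were 280 EC:aEC, 203 EC:capEC, 487 EC:vEC and 395 vSMC_PC labels. Of the 1258 that stood first in a 2-label bin, 18.6% had the larger weight there, whereas over all 2-label bins the first label had the larger weight in 91.9%. The authors called 35.2% of EC:capEC, 32.1% of EC:vEC, 22.9% of EC:aEC and 22.7% of vSMC_PC labels confident.

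In bins with 2 labels, stromal labels of different kinds almost never met. Of 245548 bins with 2 labels, 242700 (98.8%) held 1 stromal label and 1 bin held 2. Bins with 3 labels were few, and 1766 of 3106 (56.9%) held 2 stromal labels, among them 619 of the 746 that had a vascular label. A vascular and an epithelial label therefore seldom occurred together, since 563 of the 14823 vascular bins (3.80%) also held an epithelial label. No bin held 2 endothelial labels, and 3 bins held a mural and an endothelial label. Which vascular cells lie together can thus be read from neighbouring bins but not from single ones.

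Vascular bins were about as deep as other mixed bins. Their median was 411 UMIs for EC:aEC, 408 for EC:capEC, 432 for EC:vEC and 433 for vSMC_PC, against 414 in all bins with 2 or more labels. Bins with 1 label made up 58.0% of all labelled bins and carried a vascular label in 19 cases.

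The names were checked in the stromal library, because gene counts of the section are not used here. Endothelial and mural cells were set apart by their markers, venous cells by part of theirs, and arterial cells by none. The library held 90 cells labelled EC:aEC, 636 EC:capEC, 344 EC:vEC and 452 vSMC_PC, of 13226 annotated cells. Levels are summed UMIs as CPM (counts, here UMIs, per 1000000 of the type), and a gene was called when it had at least 20 UMIs and a level at least 3-fold above the type it was set against.

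Of 8 endothelial markers, 7 passed against vSMC_PC, while 10.2% of 13462 genes did. Pecam1, an adhesion molecule of endothelial junctions, had 1138 CPM in the pooled endothelial cells and 16.0 in vSMC_PC, and Cdh5, the endothelial cadherin, 781 and 5.04. Kdr, a VEGF receptor, had 526 and 4.74 CPM, and Emcn, an endothelial sialomucin, 802 and 11.9. Tie1, Egfl7 and Cldn5 also passed. The eighth, the junction protein Esam, was 2.41-fold higher at 357 against 148 CPM. All 10 mural markers passed against the endothelial cells, while 8.2% of genes did. Their lowest ratio was 12.0 for Abcc9, a potassium channel subunit of pericytes. The contractile genes Tagln and Acta2 had 5342 and 1266 CPM in vSMC_PC and 76.3 and 8.91 in endothelial cells, and the pericyte gene Rgs5 had 895 and 21.5. Pdgfrb, Cspg4, Notch3, Kcnj8, Myh11 and Des passed as well. Some of them were also present in fibroblasts, where Abcc9 had 362 CPM and Pdgfrb 189.

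Venous identity of the EC:vEC cells rested on 4 of 7 markers, at 0.735% of all genes. Selp and Sele, the selectins on which leukocytes roll, had 872 and 451 CPM in EC:vEC, and in the next vascular type, EC:capEC, 42.0 and 32.1. Ackr1, a chemokine-binding receptor of venules, had 421 CPM against 40.01 in EC:capEC. Vwf, the clotting factor carrier, had 403 CPM against 76.2 in EC:aEC. The adhesion molecules Vcam1 and Icam1 were 1.66-fold and 1.58-fold above vSMC_PC. Nr2f2, a venous transcription factor, had 287 CPM in EC:vEC, 147 in EC:aEC and 114 in EC:capEC. It went against the label only through vSMC_PC, where it reached 954 CPM.

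Capillary identity rested on 2 of 6 markers, at 0.178% of all genes. Car4, a carbonic anhydrase of capillaries, had 171 CPM in EC:capEC and 8.74 in EC:aEC, with a UMI in 26.4% of EC:capEC cells. Rgcc had 532 CPM against 157 in EC:aEC. Gpihbp1, which holds lipoprotein lipase at the capillary wall, reached 1896 CPM and was 2.68-fold above EC:aEC. Cd36 was level between the 2 types at 191 and 201 CPM, and Aplnr was 1.61-fold higher. Plvap, a protein of fenestrated endothelium, went against the label with 2686 CPM in EC:vEC and 1765 in EC:capEC.

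No arterial marker of 7 passed in the EC:aEC cells, where 0.305% of all genes did. Gja4, a gap junction protein of arteries, was highest there at 207 CPM but reached 132 in vSMC_PC and 93.7 in EC:capEC. Hey1, a Notch target gene, had 76.2 CPM and 58.4 in EC:capEC. Sox17, an arterial transcription factor, had 383 CPM in both EC:aEC and EC:capEC, Efnb2 226 and 220, Dll4 94.9 and 107, Gja5 14.98 and 18.7, and Bmx 25.0 and 17.1, with 26.8 in EC:vEC. Against EC:capEC alone, Gja4 was 2.21-fold higher in EC:aEC, under the 3-fold rule. Efnb2 had 48.1 CPM in EC:vEC, Sox17 164 and Dll4 53.9. The EC:aEC name is therefore used below as a label only.

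Among the endothelial labels, the EC:aEC reference cells had the highest sums of the mural, fibroblast and epithelial lists. The 10 mural genes summed to 710 CPM in EC:aEC, 273 in EC:capEC and 187 in EC:vEC, and to 11910 in vSMC_PC. The 4 fibroblast genes summed to 4992, 2504 and 2252 CPM, and the 4 epithelial genes to 218, 91.3 and 44.5. Other lists were not highest in EC:aEC. Erythroid genes summed to 159 CPM in EC:capEC and 1.25 in EC:aEC. Of the sum in EC:capEC, Hba-a1 gave 136 CPM and was found in 0.472% of the cells. Thymocyte genes summed to 8.74 CPM in EC:aEC, 21.6 in EC:capEC and 20.7 in EC:vEC, and myeloid genes to 6.24, 6.97 and 9.12. Of the lymphatic list, Lyve1 and Mmrn1 were highest in EC:capEC at 98.9 and 112 CPM and were found in 3.62% and 3.30% of its cells. Ccl21 was highest in vSMC_PC at 11881 CPM. The part of these RNAs in the labels of the section was not tested.

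The authors divided the section into a capsular area (123373 labelled bins), the cortex (409180) and the medullary areas mECA (40180) and mEFA (19354). The names are not spelled out, and the series title speaks of medullary areas free of epithelium. An epithelial label was on 86.6% of mECA bins and 64.5% of mEFA bins. In the files the capsular area is every bin within 50 µm of an outline, which runs around the lobes and also between lobules.

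**Figure D1:**
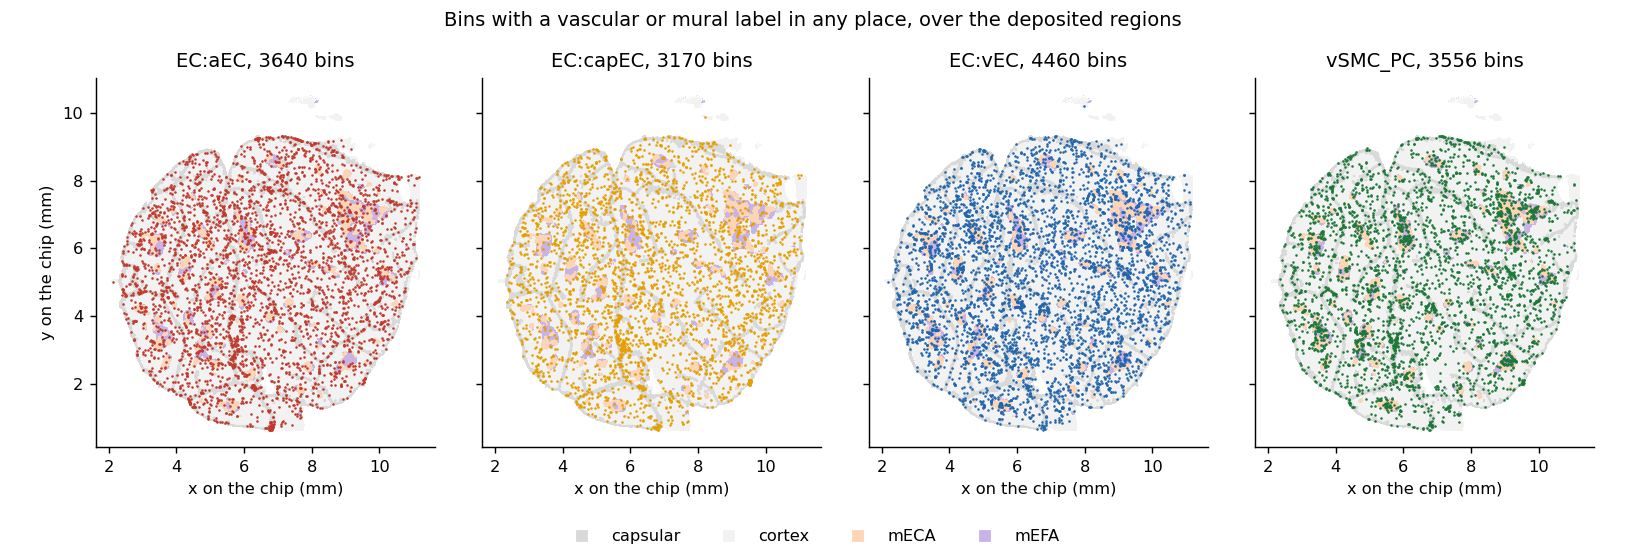
Position of every bin with a vascular or mural label in any place, 1 panel per label, over the regions that the authors deposited. Axes are chip coordinates in mm at the nominal pitch. Each panel has points in all regions. EC:aEC points crowd the outline, and vSMC_PC points are dense in the medullary areas.

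Over all labelled bins vascular labels were densest in mEFA, then in the capsular area, and sparsest in the cortex. They covered 5.79% of mEFA bins (5.46 to 6.13), 3.44% of the capsular area (3.34 to 3.54), 2.62% of mECA (2.46 to 2.78) and 2.05% of the cortex (2.01 to 2.10). Nearly all vascular labels sit in bins with 2 or 3 labels, which made up 92.1% of mECA, 79.1% of mEFA, 40.3% of the capsular area and 35.8% of the cortex. Among these mixed bins the order was another, with 8.50% in the capsular area (8.26 to 8.75), 7.31% in mEFA (6.90 to 7.74), 5.73% in the cortex (5.61 to 5.85) and 2.84% in mECA (2.68 to 3.02). For all vascular labels pooled, mEFA thus stood above the cortex and mECA over both totals. The place of mECA against the cortex depended on the total. Over mixed bins, mEFA did not stand above the cortex for each label. EC:vEC was on 2.53% of mEFA and 1.85% of cortical mixed bins, and vSMC_PC on 2.96% and 1.12%. EC:capEC was lower in mEFA, at 0.699% against 1.41%. EC:aEC was at 1.12% in mEFA (0.962 to 1.30) and 1.35% in the cortex (1.29 to 1.41), with intervals that overlap.

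Over all labelled bins, vSMC_PC was on 2.35% of mEFA bins (2.14 to 2.57), 1.00% of mECA (0.908 to 1.11), 0.856% of the capsular area (0.805 to 0.909) and 0.402% of the cortex (0.382 to 0.421). The medulla as a whole had 3.59 times the cortical share of the mural label (3.30 to 3.89) over all bins and 1.46 times (1.35 to 1.59) over mixed bins.

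EC:vEC was on 2.00% of mEFA bins (1.81 to 2.21), 0.836% of mECA (0.750 to 0.930), 0.832% of the capsular area (0.782 to 0.885) and 0.662% of the cortex (0.638 to 0.688). Its medullary share was 1.83 times the cortical share (1.69 to 1.99) over all bins but 0.748 times (0.689 to 0.811) over mixed bins, so that the direction turned. It turned for EC:aEC as well, from 1.37 (1.23 to 1.52) to 0.557 (0.5003 to 0.620). EC:aEC was highest in the capsular area at 1.02% (0.969 to 1.08), with 0.889% in mEFA (0.761 to 1.03), 0.553% in mECA (0.482 to 0.630) and 0.484% in the cortex (0.463 to 0.506). The intervals of the capsular area and mEFA overlapped. EC:capEC was on 0.728% of capsular bins (0.681 to 0.777), 0.553% of mEFA (0.453 to 0.668), 0.507% of the cortex (0.485 to 0.529) and 0.226% of mECA (0.182 to 0.278).

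EC:capEC was the 1 label of the 4 whose medullary share over all bins lay below its cortical share, with a ratio of 0.656 (0.567 to 0.759). Over mixed bins it was 0.268 (0.231 to 0.310). With first labels alone the direction turned, to 2.46 (1.61 to 3.76) on 29 medullary and 81 cortical bins, and with first labels of cell bins it was 1.78 (1.27 to 2.50). In cell bins with the label in any place it was 0.733 (0.630 to 0.853). Median depth was 306 UMIs in cortical, 314 in capsular, 516 in mECA and 490 in mEFA bins. The part of depth in these ratios was not tested.

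**Figure D2:**
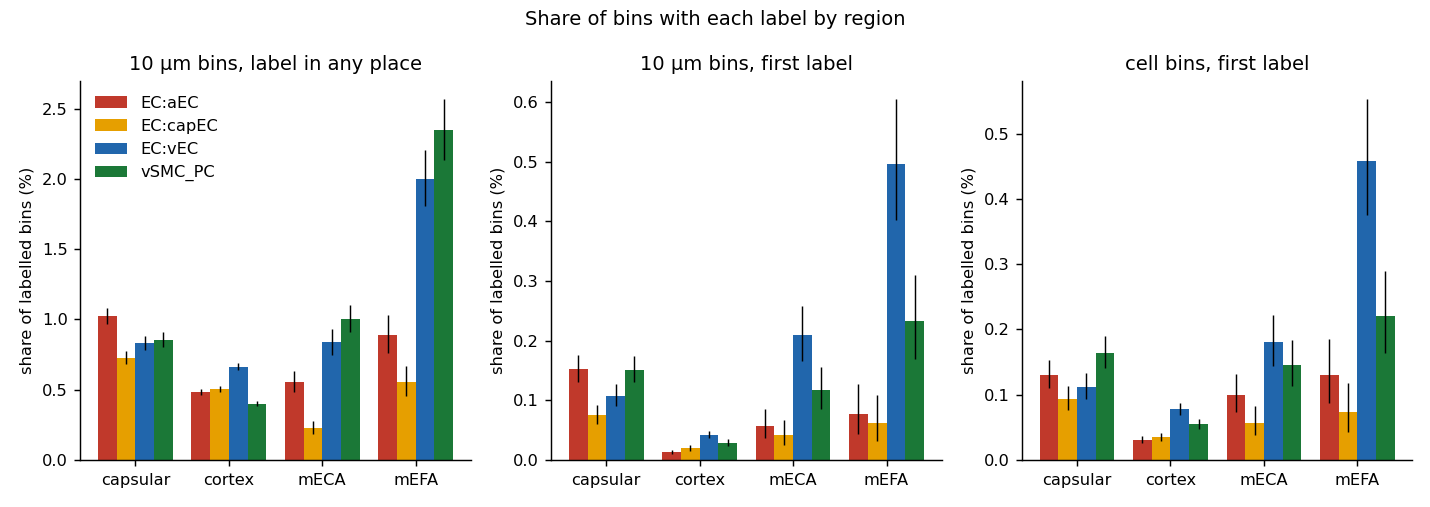
Share of labelled bins with each label (%, linear axis from 0) by region, for 10 µm bins with the label in any place, for 10 µm bins with the label in the first place, and for segmented cell bins with the label in the first place. Lines are 95% exact Clopper-Pearson intervals. vSMC_PC in any place reaches 2.35% in mEFA, whereas among first labels EC:vEC is highest there, at 0.496% of bins and 0.458% of cell bins.

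With labels in any place, the mix of vascular labels changed from the outside to the inside. Mural labels per endothelial label numbered 0.682 in mEFA, 0.621 in mECA, 0.331 in the capsular area and 0.243 in the cortex. First labels did not show this order, with 0.449 in the capsular area (0.376 to 0.535), 0.379 in mECA, 0.379 in the cortex and 0.366 in mEFA (0.254 to 0.519). In first labels of cell bins the numbers were 0.487 in the capsular area, 0.434 in mECA, 0.379 in the cortex and 0.333 in mEFA. For each EC:aEC label there were 2.25 EC:vEC labels in mEFA, 1.51 in mECA, 1.37 in the cortex and 0.812 in the capsular area. Here first labels of bins had the same order, from 6.40 in mEFA to 0.707 in the capsular area. First labels of cell bins did not, with 3.53 in mEFA, 2.51 in the cortex, 1.82 in mECA and 0.857 in the capsular area. Of the endothelial labels in any place, EC:capEC made up 30.7% of those in the cortex, 14.0% of those in mECA and 16.1% of those in mEFA. These are ratios of labels within a region, so the number of its bins does not enter them.

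The 4 labels were all more frequent in mEFA than in mECA over all labelled bins. The ratio was 1.61 for EC:aEC (1.32 to 1.96), 2.44 for EC:capEC (1.85 to 3.23), 2.39 for EC:vEC (2.07 to 2.76) and 2.34 for vSMC_PC (2.05 to 2.67). This ratio depended on the bins it was taken over. Among bins without an epithelial label it was 0.655 for EC:aEC (0.532 to 0.805), 0.983 for EC:capEC (0.734 to 1.32), 1.03 for EC:vEC (0.885 to 1.20) and 0.934 for vSMC_PC (0.816 to 1.07). Among bins with a vascular or mesenchymal label it was 0.691 for EC:aEC, 1.05 for EC:capEC, 1.03 for EC:vEC and 1.00 for vSMC_PC. Since 98.8% of 2-label bins held exactly 1 stromal label, the number of vascular labels moves with the number of epithelial ones, and neither total is neutral. Whether mEFA held more vessel per area, or fewer epithelial labels in place of vascular ones, cannot be told apart from these calls. Over 50 µm inside the medulla the ratio over all bins was 2.30, 2.44, 3.15 and 2.79 in the same order.

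The direction over all bins was shared by most separate pieces of medulla. In the 20 connected pieces with 100 or more bins of both mECA and mEFA, EC:vEC had a higher share in mEFA in 19, vSMC_PC in 17, and EC:aEC and EC:capEC in 14 each. EC:vEC ranged over these pieces from 0.671% to 5.21% of mEFA bins (median 2.06%) and from 0 to 1.72% of mECA bins (median 0.850%). vSMC_PC ranged from 0.625% to 5.83% in mEFA (median 1.96%) and from 0.366% to 1.48% in mECA (median 1.06%). The pieces lie in 1 section and are not replicates.

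The strongest concentration of vascular labels lay on the outline itself. Of the bins on the outline 13.5% held a vascular label (13.0 to 14.1), against 2.50% of all bins. EC:aEC was on 4.58% of them, vSMC_PC on 3.81%, EC:vEC on 3.04% and EC:capEC on 2.11%. All 4 shares were far lower a short way inside, at 0.258%, 0.2499%, 0.343% and 0.314% from 25 to 50 µm. Farther in, EC:vEC reached 0.957% and vSMC_PC 0.817% beyond 400 µm, EC:aEC 0.600%, and EC:capEC was highest at 0.560% from 100 to 200 µm and 0.455% beyond 400 µm. Median depth ran from 263 UMIs at 50 to 100 µm to 379 beyond 400 µm, and was 347 on the outline. Among bins with 2 or more labels the vascular share was 14.7% on the outline, 4.44% from 25 to 50 µm and 5.31% beyond 400 µm.

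**Figure D3:**
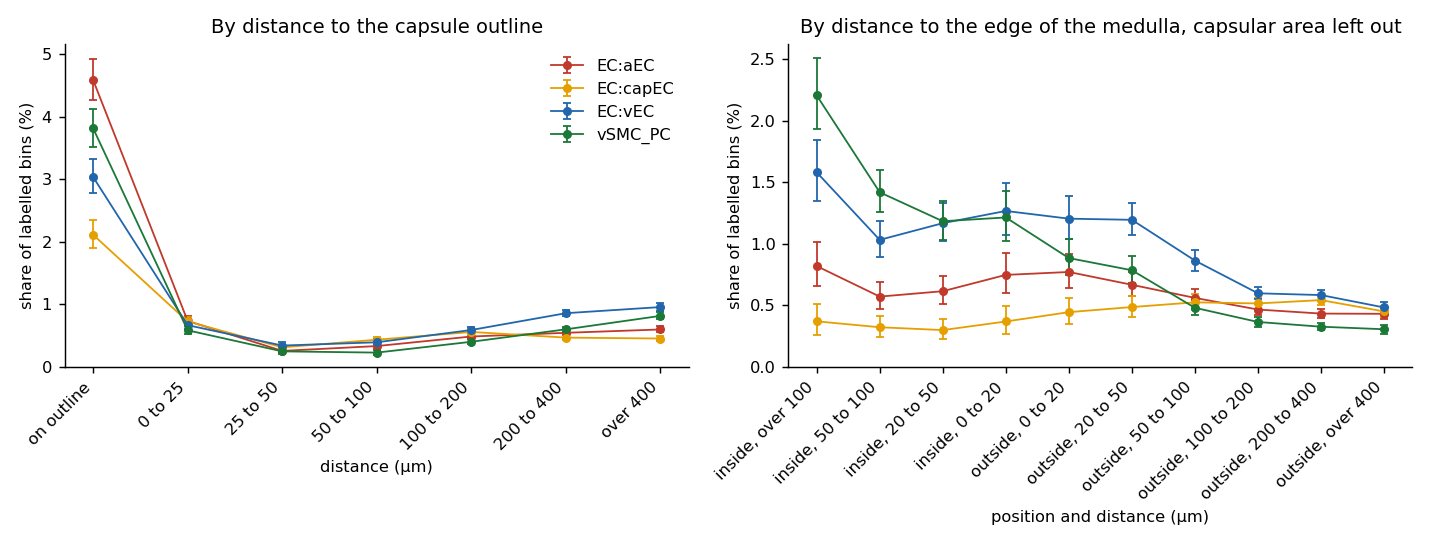
Share of labelled bins with each label (%) by distance from the capsule outline (left) and from the edge of the medulla, with the capsular area left out (right), in µm. Bars are 95% exact Clopper-Pearson intervals. All 4 labels peak on the outline. From far outside to deep inside the medulla EC:vEC goes from 0.483% to 1.58%, vSMC_PC from 0.307% to 2.20%, and EC:capEC from 0.451% to 0.371%.

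By median distance from the outline, EC:aEC (148 µm, interval 139 to 156) and EC:capEC (152 µm, 143 to 161) lay nearer the outline than labelled bins as a whole (175 µm). vSMC_PC (211 µm, 197 to 222) and EC:vEC (218 µm, 210 to 225) lay farther in. The intervals of EC:aEC and EC:capEC overlapped, as did those of vSMC_PC and EC:vEC. EC:aEC and vSMC_PC were the labels most often on the outline, with 19.9% and 17.0% of their bins, against 10.8% for EC:vEC, 10.5% for EC:capEC and 2.67% of all labelled bins. Without outline bins the medians were 210 µm for EC:aEC, 175 for EC:capEC, 246 for EC:vEC and 264 for vSMC_PC, against 181 for all bins, so that EC:aEC then lay farther in than all bins. Among first labels the median was 0 µm for EC:aEC, 80 for EC:capEC, 102 for vSMC_PC and 270 for EC:vEC.

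The weight of a label moved with its position. EC:aEC bins in which the label had at least 40% of the weight lay in the capsular area in 72.9% of cases and on the outline in 55.7%, on 192 bins. Those with under 15% of the weight lay there in 23.6% and 4.93%, on 1156 bins. The capsular part of vSMC_PC went from 19.0% to 55.7% and that of EC:capEC from 22.3% to 57.0% over the same weights. EC:vEC differed from these, since its medullary part also went up with weight, from 11.9% of 1375 bins to 28.2% of 255. The depth of the bins moved as well, with medians of 449 UMIs at low and 318 at high weight for EC:aEC, and of 446 and 445 for EC:vEC.

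Over all labelled bins the venous and mural labels became more frequent toward the medulla, on different scales. EC:vEC was on 0.483% of cortical bins more than 400 µm from the medulla (0.439 to 0.531), 0.864% from 50 to 100 µm, 1.19% from 20 to 50 µm and 1.20% within 20 µm of it. Inside, it stayed between 1.03% and 1.27% up to 100 µm and was 1.58% beyond (1.35 to 1.84). vSMC_PC was on 0.307% of the farthest cortical bins (0.271 to 0.345), 0.884% within 20 µm outside, 1.21% within 20 µm inside and 2.20% more than 100 µm inside (1.93 to 2.51). EC:aEC was highest around the edge and deep inside, with 0.771% within 20 µm outside and 0.819% more than 100 µm inside, against 0.432% far outside. EC:capEC was the reverse, from 0.451% to 0.543% beyond 50 µm outside and 0.300% to 0.371% inside. Its first labels went the other way, from 0.0124% to 0.0212% beyond 50 µm outside and 0.0421% to 0.0585% inside, on at most 27 bins in a range. Median depth moved with these ranges, from 287 UMIs far outside to 518 inside the medulla, and the part of mixed bins from 29.6% far outside to 90.0% inside. Over mixed bins vSMC_PC still went from 1.04% far outside (0.917 to 1.16) to 2.61% more than 100 µm inside (2.28 to 2.96). EC:vEC was then highest outside the edge, with 1.63% far outside, 2.23% from 50 to 100 µm and 1.87% more than 100 µm inside. EC:aEC went from 1.46% to 0.969% and EC:capEC from 1.52% to 0.438%.

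Vascular labels lay next to each other more often than their share in each region gives. For this, the bins within 30 µm of a centre label were pooled, each counted once and without the centres, and the number with a second label was divided by the number expected from its share in the same region. Around EC:aEC, 1297 bins held vSMC_PC where 552 were expected, a ratio of 2.35 (2.22 to 2.48). Around EC:capEC the ratio was 2.11 (1.98 to 2.25) and around EC:vEC 1.90 (1.80 to 2.01). Read from the mural side, the ratios around vSMC_PC were 2.35 for EC:aEC (2.22 to 2.48), 2.14 for EC:capEC (2.00 to 2.29) and 2.13 for EC:vEC (2.02 to 2.25). Endothelial labels around each other lay between 1.87 and 2.29. The 12 ratios were thus alike in size, with the highest value for EC:aEC and vSMC_PC and the lowest for EC:aEC around EC:vEC.

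The excess was local. In the cortex the ratio of vSMC_PC was 4.59 within 15 µm of EC:aEC, 1.63 from 15 to 30 µm, 0.917 from 30 to 60 µm (0.829 to 1.01) and 0.802 from 60 to 100 µm. In the medulla the same steps were 3.02, 1.38, 0.890 and 0.788. Around EC:vEC they were 3.97, 1.32, 0.973 and 0.755 in the cortex and 2.17, 1.12, 0.896 and 0.806 in the medulla. In a ring from 20 to 40 µm, which leaves out touching bins, the ratio of vSMC_PC was 1.30 around EC:aEC, 1.24 around EC:capEC and 1.16 around EC:vEC. Touching bins can share the RNA of 1 cell, and its part in the excess was not tested. Expected numbers are those of the whole region, so ratios above 1 near a label entail ratios below 1 farther off.

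Mixed bins were also denser around vascular labels. In the cortex 47.0% of bins near EC:aEC and 50.3% near vSMC_PC held 2 or more labels, against 35.8% of the cortex, and in the capsular area 55.4% and 55.0%, against 40.3%. In mECA the values were 91.7% and 90.3% against 92.1%. Over neighbours with 2 or more labels the ratio of vSMC_PC was 1.84 around EC:aEC (1.74 to 1.94), 1.74 around EC:capEC (1.63 to 1.85) and 1.58 around EC:vEC (1.49 to 1.67), and the 12 ratios ran from 1.49 to 1.86. The highest was then EC:vEC around EC:capEC (1.76 to 1.97), whose interval overlapped that of vSMC_PC around EC:aEC. In mECA, where nearly every bin was mixed, vSMC_PC around EC:aEC was 2.21 with either set of neighbours. In mEFA it was 1.72 (1.46 to 2.02) over all neighbours, and EC:aEC around EC:capEC was 1.32 there, with an interval that holds 1 (0.886 to 1.90).

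**Figure D4:**
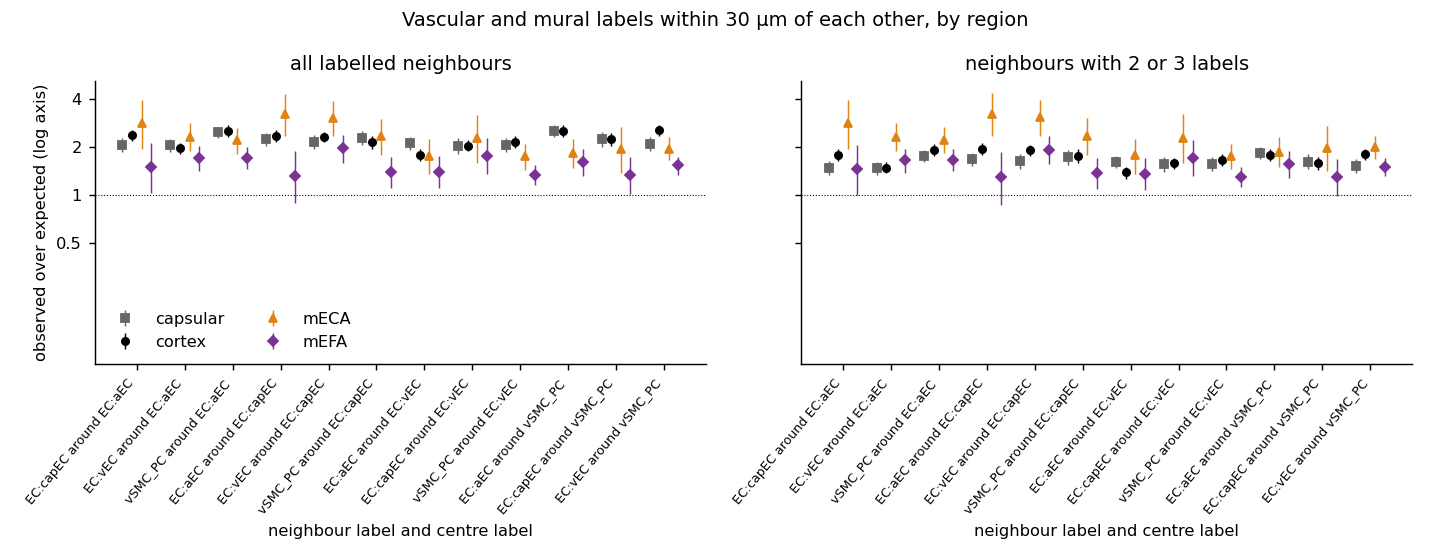
Observed over expected number of bins with a second vascular label within 30 µm of a centre label, for the 12 ordered pairs and 4 regions (log axis), over all labelled neighbours (left) and over neighbours with 2 or 3 labels (right). Lines are 95% exact Poisson intervals. All ratios exceed 1. Those of the cortex and capsular area are lower on the right, for example vSMC_PC around EC:aEC in the cortex with 2.53 and 1.92, and in mEFA some intervals reach 1.

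Among all bins, 36.8% of EC:aEC centres had another EC:aEC bin within 30 µm, where 17.4% were expected. The same was true of 38.0% of EC:capEC centres (14.5% expected), 44.7% of EC:vEC centres (20.4%) and 42.5% of vSMC_PC centres (20.1%). At the same distance, 33.8% of EC:aEC, 28.0% of EC:capEC and 31.6% of EC:vEC centres had a mural bin, where 17.1%, 15.4% and 17.5% were expected. The larger part of endothelial bins therefore had no mural bin within 30 µm.

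Touching vascular bins joined into 9411 patches, of which 73.5% were single bins. The 328 patches of at least 5 bins held 17.5% of all vascular bins, and 260 of them combined a mural with an endothelial label. Since vSMC_PC was on 3556 of the 14823 vascular bins, a patch of this size can hold a mural bin through the mix of labels alone. The number expected from that mix was not computed. Of vascular bins in mEFA 29.9% lay in such patches, against 25.4% in the capsular area, 16.5% in mECA and 12.0% in the cortex. The 3 largest patches had 31 bins each. The first lay on the outline with 16 EC:aEC, 8 EC:capEC, 6 vSMC_PC and 1 EC:vEC bins, and the second also on it with 14 vSMC_PC and 8 EC:aEC bins. The third lay in the cortex, 357 µm from the outline, and had 23 EC:vEC bins and 2 vSMC_PC bins.

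Mesenchymal labels were near vascular ones as well. TMC names mesenchymal groups numbered by the authors, and capFb a further fibroblast group. Around vSMC_PC the ratio was 2.37 for TMC3 (2.23 to 2.51), 2.34 for TMC1 (2.16 to 2.52), 2.15 for capFb, 1.88 for TMC4 (1.80 to 1.97) and 1.87 for TMC2. Around EC:vEC it was 1.98 for TMC3, 1.89 for TMC2, 1.72 for TMC4, 1.71 for TMC1 and 1.40 for capFb. Over all regions, the ratios of vSMC_PC to TMC1 and TMC3 and to EC:aEC had overlapping intervals. By region the order varied, with EC:aEC around vSMC_PC at 2.54 and TMC3 at 2.38 in the capsular area, and 2.53 and 3.41 in the cortex. Among epithelial labels TEC:early Pr had the highest ratios over all regions, from 1.30 around EC:capEC to 1.53 around EC:aEC and vSMC_PC. Cortical epithelium (cTEC) ran from 0.983 around vSMC_PC to 1.15 around EC:capEC. In the cortex the label TEC:mTEC1 was above TEC:early Pr around vSMC_PC (2.12 and 1.78) and EC:vEC (1.70 and 1.60). It was below around EC:aEC (1.57 and 1.60) and EC:capEC (1.18 and 1.31). Cortical neighbours of vSMC_PC lay nearer the medulla than the cortex as a whole (median 175 against 220 µm). More of them were mixed bins (50.3% against 35.8%). The mesenchymal and epithelial ratios were not recomputed over mixed neighbours or at like distance from the medulla.

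Thymocytes around vessel labels were described by the first label of the neighbours. Mature single-positive labels (mature SP, the 4 mature CD4 and CD8 labels) were, with labels in any place, most frequent around the mural label. They made up 9.22% of bins within 30 µm of vSMC_PC, where 7.34% were expected from the regions, a ratio of 1.26 (1.23 to 1.29). Around EC:vEC the ratio was 1.16 (1.13 to 1.19), around EC:aEC 1.10 (1.07 to 1.13), and around EC:capEC 1.01 (0.972 to 1.05), with an interval that holds 1. Around first labels the order was another, with 1.39 for EC:capEC (1.26 to 1.53), 1.36 for EC:vEC, 1.33 for vSMC_PC and 1.27 for EC:aEC. Labels of agonist-selected and regulatory T cells had ratios of 1.15 around vSMC_PC, 1.12 around EC:vEC, 1.09 around EC:aEC and 0.987 around EC:capEC. In the cortex these ratios were 1.52, 1.26, 1.17 and 0.932 in the same order. In the medulla each was 1.01, with an interval that holds 1 (0.988 to 1.04 around vSMC_PC). They were not recomputed at like distance from the medulla.

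Most double-positive stages went the other way around the same labels. Proliferating double-positive cells (DP-P) had ratios of 0.820 around EC:aEC, 0.820 around EC:capEC, 0.827 around EC:vEC and 0.740 around vSMC_PC, and double-positive cells (DP) 0.921, 0.946, 0.890 and 0.865. In the same order the pre-signalled stage (Pre DP-sig) was at 0.962, 0.959, 0.921 and 0.920. The signalled stage (DP-sig) was at 0.992, 0.927, 1.01 and 0.951, where only the interval around EC:capEC leaves out 1 (0.871 to 0.985). DN labels were at 0.990 around EC:aEC, 1.04 around EC:capEC, 1.01 around EC:vEC and 0.955 around vSMC_PC. Immature single-positive labels were above 1 around vSMC_PC (1.11, 1.07 to 1.14) and EC:vEC (1.07, 1.04 to 1.11), and at 1.03 around EC:aEC and 0.966 around EC:capEC with intervals that hold 1. Around vSMC_PC they were at 1.24 in the cortex and 1.01 in the medulla (0.968 to 1.06), and around EC:vEC at 1.09 and 1.06. Ratios of immature labels were not recomputed at like distance from the medulla. EC:capEC was the 1 label with more DN and fewer mature SP neighbours than expected in the cortex, at 1.07 (1.06 to 1.09) and 0.942 (0.887 to 0.999). For mature SP at like distance from the medulla it was 0.954 (0.898 to 1.01), with an interval that holds 1.

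Around vSMC_PC, EC:vEC and EC:aEC the mature SP ratio was larger in the cortex than in the medulla, and around EC:capEC it was smaller. In the cortex mature SP labels were 4.17% of the bins near vSMC_PC against 2.47% expected, a ratio of 1.69 (1.61 to 1.77), and the ratio was 1.35 around EC:vEC (1.29 to 1.41) and 1.19 around EC:aEC (1.13 to 1.26). The neighbours of vSMC_PC in the cortex lay at a median of 175 µm from the medulla, against 220 µm for the cortex, and had 378 UMIs against 306. With the expected number taken from cortical bins at like distance from the medulla, the ratio was 1.25 around vSMC_PC (1.19 to 1.31), 1.11 around EC:vEC (1.06 to 1.16) and 1.02 around EC:aEC (0.971 to 1.08). With bins of like depth it was 1.42, 1.20 and 1.04 (0.989 to 1.10). The excess around vSMC_PC and EC:vEC was thus smaller but above 1 under each, and that around EC:aEC was not.

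**Figure D5:**
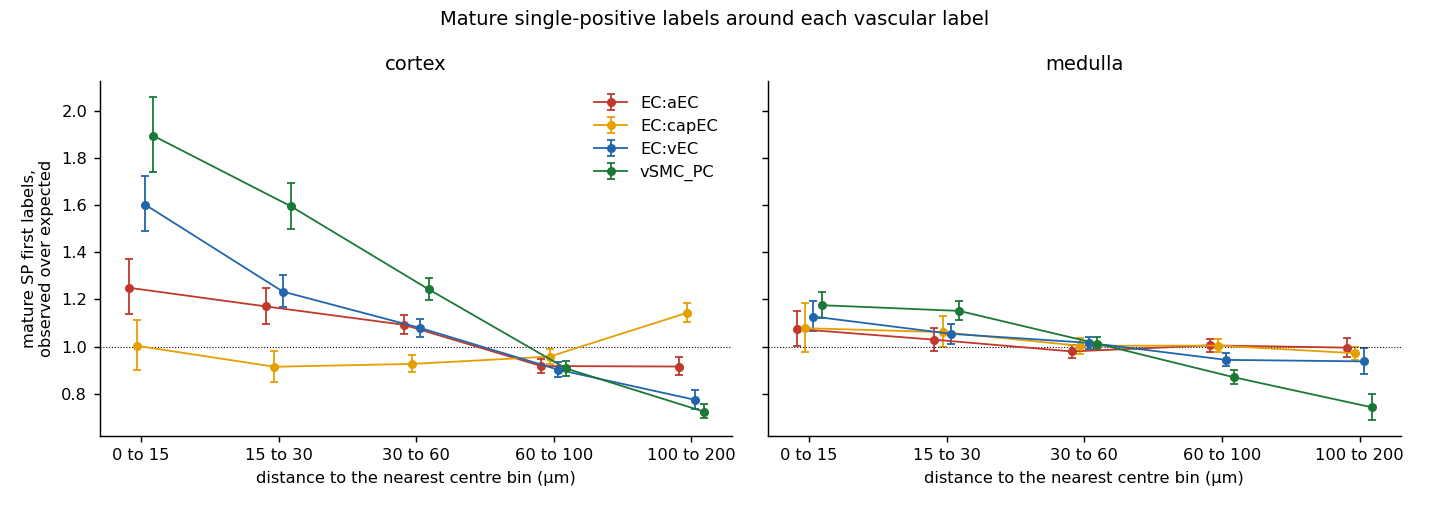
Observed over expected number of bins with a mature SP first label (linear axis) by distance in µm to the nearest bin with each vascular label, in the cortex (left) and the medulla (right). Bars are 95% exact Poisson intervals. In the cortex the ratio falls from 1.89 within 15 µm of vSMC_PC to 0.724 at 100 to 200 µm, and from 1.60 to 0.774 for EC:vEC. The expected number is that of the whole region, so values above 1 near a label entail values below 1 farther off. Distance from the medulla is not held alike. In the medulla the values within 30 µm lie between 1.03 and 1.18.

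In the medulla mature SP labels made up 31.1% of bins near vSMC_PC, where 26.8% were expected, a ratio of 1.16 (1.13 to 1.19). The ratio was 1.08 around EC:vEC (1.04 to 1.11), 1.07 around EC:capEC (1.01 to 1.12) and 1.04 around EC:aEC (1.00 to 1.09). It was the same around vSMC_PC in mECA (1.16, 1.12 to 1.21) and in mEFA (1.16, 1.11 to 1.20). With bins at like distance from the edge of the medulla it was 1.11 around vSMC_PC (1.08 to 1.14), with 1.15 in mECA and 1.07 in mEFA. On that basis EC:vEC had 1.07 (1.03 to 1.10) and EC:aEC 1.04 (1.00 to 1.08), with intervals that overlap those of the cortex. DN labels were at 0.743 (0.685 to 0.805) and DP labels at 0.714 (0.620 to 0.818) around vSMC_PC in the medulla, and at 0.876 and 0.806 around EC:vEC. These low values came from mEFA, with 0.674 and 0.654 around vSMC_PC and 0.769 and 0.701 around EC:vEC. In mECA, DN and DP were at 0.909 (0.792 to 1.04) and 0.930 (0.708 to 1.20) around vSMC_PC. Around EC:vEC they were at 1.15 (0.998 to 1.32) and 1.21 (0.915 to 1.57) there. DN and DP ratios were not recomputed at like distance from the edge.

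By subset, the medullary ratios around vSMC_PC were 1.28 for the label Mature CD4-1 (1.19 to 1.38) and 1.20 for Mature CD8-1 (1.11 to 1.29). Mature CD4-2 was at 1.19 (1.14 to 1.24), and Mature CD8-2 at 1.08 (1.03 to 1.13). Around EC:vEC they were 1.12, 1.13, 1.16 and, for Mature CD8-2, 0.961 (0.907 to 1.02). Mature CD8-2 was also at 0.933 around EC:aEC (0.870 to 0.998) and 0.941 around EC:capEC (0.857 to 1.03). It was thus the lowest of the 4 subsets around every vascular label, while Mature CD4-2 was at 1.15 or higher around each.

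A second table of the same section follows the outlines of segmented cells. Of its 796801 cell bins 224118 had no label, none of them with more than 99 UMIs, against 7091 of 599178 square bins. Shares and ratios of cell bins are over the labelled ones. Of 572683 labelled cell bins, with a median of 196 UMIs, 1771 (0.309%) had a vascular first label, namely 622 EC:vEC, 518 vSMC_PC, 346 EC:aEC and 285 EC:capEC. EC:vEC was on 0.458% of cell bins in mEFA (0.375 to 0.553), 0.180% in mECA, 0.112% in the capsular area and 0.0776% in the cortex. vSMC_PC was on 0.220% in mEFA (0.164 to 0.289), 0.164% in the capsular area, 0.146% in mECA and 0.0544% in the cortex. The ratio of mEFA to mECA was 2.54 for EC:vEC (1.92 to 3.37) and 1.51 for vSMC_PC (1.06 to 2.16). For EC:aEC it was 1.31 (0.829 to 2.06) and for EC:capEC 1.29 (0.709 to 2.36), with intervals that hold 1 on 30 and 17 cell bins in mEFA.

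Median distance from the outline was 147 µm for EC:aEC (82.1 to 194) and 141 for EC:capEC (113 to 198). It was 211 µm for vSMC_PC (178 to 241) and 281 for EC:vEC (266 to 296), against 198 for all labelled cell bins. The intervals of EC:capEC and vSMC_PC hold the median of all labelled cell bins. Of EC:aEC cell bins 38.4% lay on the outline. Around endothelial first labels the ratio of the vSMC_PC first label was 8.81 for EC:aEC, 7.01 for EC:capEC and 4.46 for EC:vEC. The mature SP ratio ran from 1.27 around EC:aEC to 1.42 around vSMC_PC. The 2 tables come from the same RNA and are no replicate of each other. At the place of a vascular cell bin the 10 µm bin carried the same label in 48.9% of cases for EC:vEC, 36.4% for EC:aEC, 35.2% for vSMC_PC and 29.1% for EC:capEC, against 0.568% to 0.850% of bins in general, and any vascular label in 47.8% to 63.0%.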

How the data were processed

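The section was used through 2 tables deposited by the authors, of 20-unit bins and of segmented cell bins. Per the series text, labels came from RCTD with rat and published mouse references. UMI and gene counts per bin are raw counts as the authors deposited them. The weight of each label is a fraction given by the authors, and a bin with 1 label, which has no deposited weight, was set to 1. The deposited score columns of the authors for medullary epithelium and thymocytes were not used for any result, nor was the authors' deposited percent of mitochondrial UMIs. The regions and the capsule distance were taken as deposited, and that distance equalled the distance to the nearest outline bin in 100% of bins (tolerance 0.001 units). Counts of the stromal library are raw UMIs made with Cell Ranger 8.0.0, with Seurat 5.3.0 and the build mRatBN7.2 also listed, per the submitters' processing notes. The aligner of the section is not given in the sources used here.

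Shares, ratios and neighbourhood ratios were computed with SciPy 1.17.1 and NumPy 2.4.6 on pandas 2.3.3 tables (Python 3.11.15), figures were drawn with matplotlib 3.10.9, and the neighbourhood code was tested on simulated data. Shares have exact Clopper-Pearson, ratios of shares log-normal, observed over expected numbers exact Poisson, and medians order-statistic intervals. Edges of the medulla are where mECA or mEFA meets other bins, and touching bins include diagonal ones. Depth was compared in quintiles of the UMI count. A level below 3 UMIs was set to 3 UMIs in a ratio. The genes tested are those with at least 20 UMIs over the 4 vascular types. Genes named are those that passed the 3-fold rule, the 2 highest of each list and those that went against their label. No doublet caller was run. The members, lists and regions were chosen with earlier results of these data known. Alternatives were the place, weight and confidence of a label, depth, the low-x and high-x parts split at the median x, cell bins, radii, rings, totals of bins and strata, of which confident labels, other totals, strata and all those of the ratio of medulla to cortex and of the mix of labels were chosen after seeing the data.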

Additional observations from a re-analysis of the deposited data

How the results depend on the processing

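No paired analysis was possible because there was 1 section. Of 191 ratios and medians recomputed under alternatives, 57 stayed inside the interval given for the main value, 125 moved outside it and 9, all of them ratios whose main interval leaves out 1, changed direction. The cause was not tested. The ratio of mEFA to mECA changed direction for EC:aEC over bins without an epithelial label (0.655) and over bins with a vascular or mesenchymal label (0.691), and over bins without an epithelial label for EC:capEC (0.983) and vSMC_PC (0.934). The other totals moved EC:vEC to 1.03 in both cases, EC:capEC to 1.05 and vSMC_PC to 1.00, and bins with 2 or 3 labels moved EC:vEC to 2.78 and vSMC_PC to 2.72. Bins over 50 µm inside the medulla gave 2.30 for EC:aEC, 3.15 for EC:vEC and 2.79 for vSMC_PC. First labels gave 1.47 for EC:capEC and 1.99 for vSMC_PC, first labels of cell bins 1.31 for EC:aEC, 1.29 for EC:capEC and 1.51 for vSMC_PC, labels with at least 25% of the weight 1.77 for EC:capEC and 1.76 for vSMC_PC, and confident labels 4.45 and 3.02. vSMC_PC gave 2.67 in the low-x and 2.04 in the high-x part of the section.

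The ratio of medulla to cortex changed direction over bins with 2 or 3 labels for EC:aEC (0.557) and EC:vEC (0.748), in bins at or above the median depth for EC:aEC (0.761), and for EC:capEC with first labels (2.46) and in cell bins with first labels (1.78). It moved to 0.268 for EC:capEC and 1.46 for vSMC_PC over bins with 2 or 3 labels, and to 0.385 for EC:capEC, 1.02 for EC:vEC and 1.98 for vSMC_PC in bins at or above the median depth. First labels gave 4.84 for EC:aEC, 7.11 for EC:vEC and 5.40 for vSMC_PC, first labels of cell bins 3.52, 3.46 and 3.12, and cell bins with vSMC_PC in any place 2.84. Mural labels per endothelial label in the capsular area, cortex, mECA and mEFA were 0.449, 0.379, 0.379 and 0.366 with first labels and 0.487, 0.379, 0.434 and 0.333 in cell bins.

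Median distance from the outline moved with first labels to 0 µm for EC:aEC, 80 for EC:capEC, 270 for EC:vEC and 102 for vSMC_PC, and in this order to 20, 80.6, 227 and 114 µm with at least 25% of the weight, to 194, 180, 246 and 260 µm in bins at or above the median depth, to 120, 122, 197 and 166 µm in the low-x part and to 190, 186, 254 and 262 µm in the high-x part. Cell bins gave 141 µm for EC:capEC and 281 for EC:vEC, and confident labels 141 and 252 µm.

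The ratio of vSMC_PC around EC:aEC, EC:capEC and EC:vEC stayed above 1 under all 13 alternatives run. In this order it was 3.99, 3.36 and 3.13 at 15 µm, 1.34, 1.25 and 1.28 at 60 µm, 1.30, 1.24 and 1.16 in the ring, 13.7, 11.4 and 6.94 with first labels, 8.81, 7.01 and 4.46 in cell bins, 1.99, 1.73 and 1.61 in bins at or above the median depth, 2.02, 1.85 and 1.64 within depth quintiles, and 1.84, 1.74 and 1.58 over neighbours with 2 or 3 labels. Expected from the whole section it was 2.62 around EC:aEC and 2.13 around EC:vEC, and in the high-x part 2.01 around EC:vEC.

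The mature SP ratio around EC:aEC, EC:capEC, EC:vEC and vSMC_PC was 1.15, 1.05, 1.26 and 1.31 at 15 µm, 1.27, 1.39, 1.36 and 1.33 with first labels, 1.27, 1.31, 1.40 and 1.42 in cell bins, and 1.14, 0.847, 1.37 and 2.00 expected from the whole section. Around EC:aEC, EC:vEC and vSMC_PC it was 1.04, 1.08 and 1.14 at 60 µm, 1.06, 1.11 and 1.21 within depth quintiles, and 1.05, 1.08 and 1.15 at like distance from the medulla. The ring gave 1.08 around EC:vEC and 1.19 around vSMC_PC. Bins at or above the median depth gave 1.07 around EC:aEC and 0.963 around EC:capEC, neighbours without an epithelial label 1.10 around EC:vEC and 1.21 around vSMC_PC, and the high-x part 1.13 around EC:aEC and 1.29 around vSMC_PC, with 1.23 around vSMC_PC in the low-x part. The ratio around EC:capEC, whose main interval holds 1, lay below 1 under 7 of 13 alternatives and above it under the others. The 15 counts of markers past 3-fold stayed within 1.5 times of those reported. First labels were few, and EC:capEC had 12 such bins in mEFA.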
